A study of Mus musculus with 4 samples.

Results

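Mitochondrial ribosomal proteins are made from nuclear genes named Mrpl for the large subunit and Mrps for the small subunit of the mitochondrial ribosome. Their members in this data set were taken by a rule on the symbol, Mrpl or Mrps followed by a digit, and 55 of the 6352 transcripts in the table matched it. Of these, 35 carried the name Mrpl and 20 the name Mrps. RefSeq lists 78 protein-coding mouse genes whose symbols follow the rule, and the other 23 were not analysed here. The 55 genes lie on 15 chromosomes, and each is represented by 1 transcript.

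Ribosome footprints were sequenced from primary cultured cortical neurons of the mouse after harringtonine, which holds ribosomes at the start codon, so that footprints gather where translation begins. All cells received 5 µg/ml harringtonine for 3 min, and each combination of genotype and RNAi had 1 library, with no replicate. The groups are called by genotype and code letters and were KO SC (Ltn1 KO, titled Ttc3 RNAi), KO TTC (Ltn1 KO, titled scrambled RNAi), WT SC (wild type, titled Ttc3 RNAi) and WT TTC (wild type, titled scrambled RNAi). Ltn1 encodes a ubiquitin ligase that acts on stalled nascent chains, and Ttc3 encodes another ubiquitin ligase. The age of the neurons, the number of animals behind a culture and the deleted part of Ltn1 are not given in the sources used here. The labels conflict, because the code letters SC and TTC spell the opposite of the RNAi in the titles, and the grouping follows the titles.

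The labelled targets did not separate the libraries by their labels. The initiation site of Ltn1 (ENSMUST00000039449.8) had 37 reads (KO SC) and 0 (KO TTC), against 10 (WT SC) and 2 (WT TTC). The library labelled Ltn1 KO and coded SC thus goes against its label, unless the site lies outside the deleted part. Ttc3 (ENSMUST00000117648.8) had 2 reads (KO SC) and 3 (WT SC), against 0 (KO TTC) and 0 (WT TTC). Its few reads thus lay in the libraries titled Ttc3 RNAi, which goes against those titles as far as 5 reads can, so which code received which RNAi is not settled here. Below, KO stands for libraries labelled Ltn1 KO, and the SC and TTC pairs are given apart, so that the TTC pair is the comparison without KO SC. The libraries held 2673112 reads (KO SC), 3655827 (KO TTC), 2096153 (WT SC) and 1460425 (WT TTC), of which 6.06% to 6.85% fell on the listed sites. Values are reads per 1000000 reads of the whole library (RPM), counted at 1 initiation site per transcript. They are not divided by length, and a single read was worth 0.374 RPM (KO SC), 0.274 (KO TTC), 0.477 (WT SC) and 0.685 (WT TTC). Intervals are 95% and cover counting error only.

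The mitochondrial ribosome translates the few proteins that mitochondrial DNA encodes, all of them core subunits of the respiratory chain or of the ATP synthase. Its RNAs are transcribed in the organelle, whereas every protein of it is translated on cytosolic ribosomes and imported, so that the products of both genomes meet in it. Many of these proteins descend from bacterial ribosomal proteins, and many others were acquired in the mitochondrial lineage. Neurons depend on oxidative phosphorylation, and loss of single subunits impairs mitochondrial translation in mammals. Mrps18a and Mrps30 sit in the large subunit of the mammalian structure despite their names. The large subunit therefore had 37 members and the small subunit 18.

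Promoter sequences are shown for Mrpl17 and Mrpl44, which are 2 of the 3 members whose KO over WT ratio differed between the codes, and for Mrps11, which shares its start region with Mrpl46. They were taken from RefSeq on GRCm38.p6, with capitals for matches to the NRF1 motif (GCGCA and GCGC with any base between) or the Sp motif GGGCGG on either strand. NRF1 is a transcription factor known for driving nuclear genes of mitochondria.
Mrpl17, 120 bases before its start, chr7:105811088-105811207, minus strand: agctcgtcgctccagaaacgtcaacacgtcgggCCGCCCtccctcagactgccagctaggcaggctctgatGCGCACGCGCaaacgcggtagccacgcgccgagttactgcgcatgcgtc
Mrpl44, 120 bases before its start, chr1:79775898-79776017, plus strand: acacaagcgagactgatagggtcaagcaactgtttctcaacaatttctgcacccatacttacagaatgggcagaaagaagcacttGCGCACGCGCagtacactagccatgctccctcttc
Mrps11 and Mrpl46, the 41 bases between their starts, chr7:78783090-78783130, plus strand: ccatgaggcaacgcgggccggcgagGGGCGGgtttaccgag
A window of 250 bases before to 50 bases after the start was matched for 47 of the 55 members. The NRF1 motif was found in 10 of the 47 (21.3%), against 4.78% of all promoters and 12.5% of those of genes in the table. The ETS motif CCGGAAG, read by GABP, was found in 13 (27.7%, against 9.12% of all promoters and 19.1% in the table), and the YY1 motif AAGATGGC in 9 (19.1%, against 2.88% and 5.35%). The Sp motif was found in 20 (42.6%), against 35.9% of all promoters and 69.7% in the table. These are matches of letters and not measured binding. A gene starting in the opposite direction within 1000 bases was present for 17 of the 47 members (36.2%), against 854 of 4912 genes in the table (17.4%).

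As a group, the members held between 0.609% and 0.659% of the footprints on listed sites. They took 1057 reads (KO SC), 1597 (KO TTC), 881 (WT SC) and 609 (WT TTC), and the share was lowest in WT TTC. Their summed level was 395 RPM (KO SC, interval 372 to 420) and 437 RPM (KO TTC, 416 to 459), against 420 RPM (WT SC, 393 to 449) and 417 RPM (WT TTC, 385 to 451). The sum was thus lowest in KO SC and highest in KO TTC, with intervals that overlap the WT library of the same code. Relative to WT the ratio was 0.941 (0.860 to 1.03) in the SC pair, beside 1.05 (0.954 to 1.15) for TTC, and the SC ratio moved to 1.04 with median-of-ratios scaling. The median member had 4.12 RPM (KO SC) and 4.65 RPM (KO TTC), against 4.29 RPM (WT SC) and 5.48 RPM (WT TTC). The median over all transcripts was lower in each library, at 2.62 (KO SC), 3.01 (KO TTC), 2.86 (WT SC) and 2.74 RPM (WT TTC). No RNA was sequenced beside the footprints, so a level combines how much mRNA was present with how often it was initiated, and fewer cells of a type cannot be told apart from less RNA per cell.

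**Figure D1:**
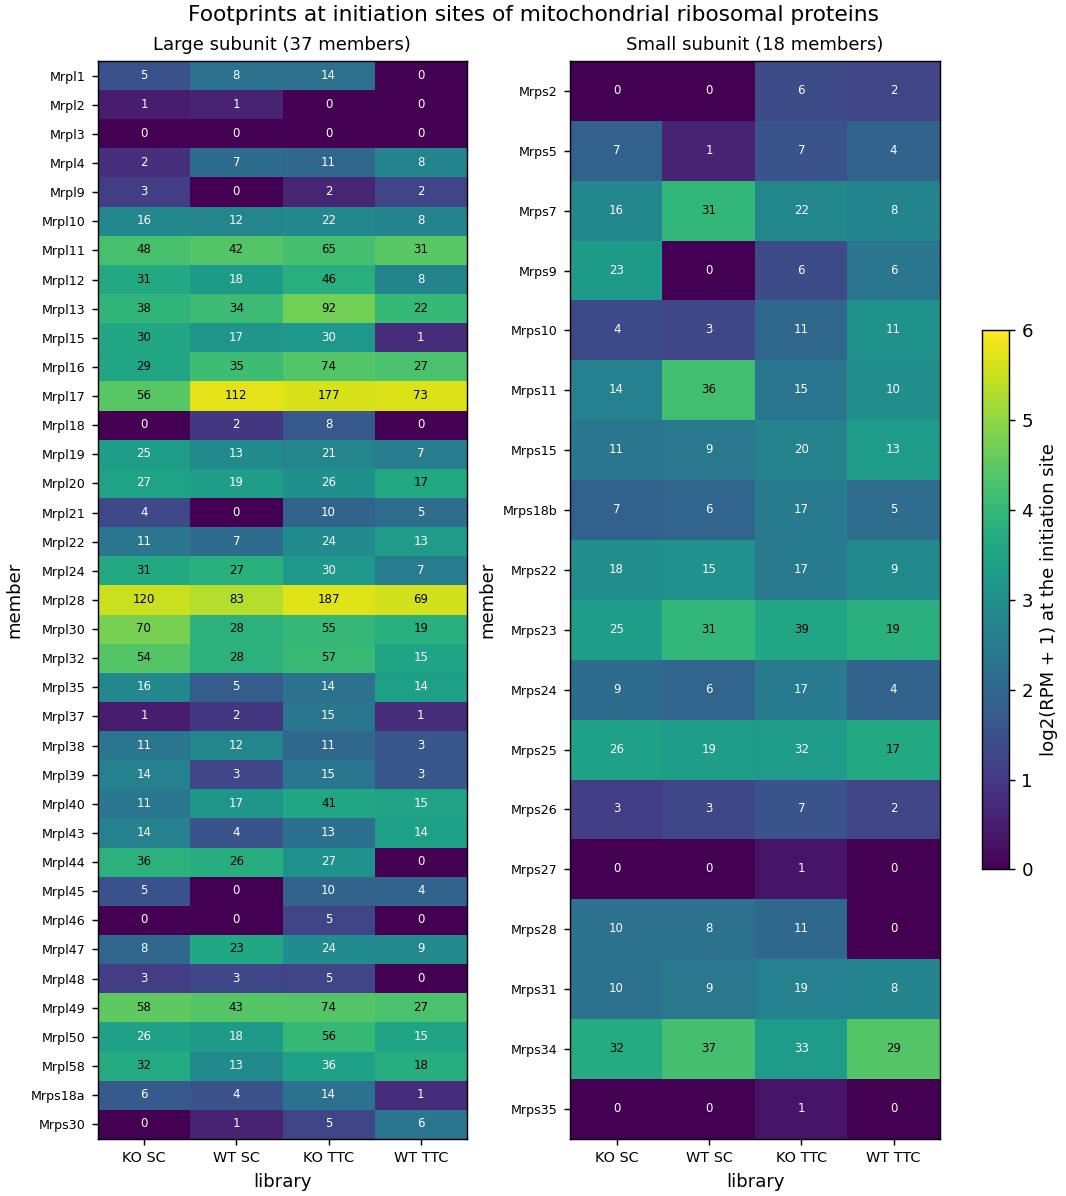
Colour gives log2(RPM + 1) at the initiation site of each of the 55 members (rows, large subunit at the left and small subunit at the right) in each library (columns), with the recovered reads printed in the cells. Mrpl17 and Mrpl28 stand out as the brightest rows, with 56 to 177 and 69 to 187 reads, and Mrpl3 has 0 reads throughout.

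Levels within the ribosome were unequal, although most of its proteins are equally represented in the assembled particle. A mean of at least 10 RPM was reached by 12 members, and 15 members had a mean under 2 RPM. Mrpl28 and Mrpl17, both large subunit proteins with bacterial counterparts, together held 21.2% of all member reads. Mrpl28 had 44.9 RPM (KO SC) and 51.2 (KO TTC), against 39.6 (WT SC) and 47.2 (WT TTC), so its lowest and highest library were 1.29-fold apart. Adding Mrpl49, Mrpl11 and Mrpl13, the top 5 held 35.0%. Mrpl49 belongs to the proteins without a bacterial counterpart. It had 21.7 RPM (KO SC) and 20.2 (KO TTC), against 20.5 (WT SC) and 18.5 (WT TTC). Mrpl11 lies at the base of the stalk that binds translation factors, and it had 18.0 RPM (KO SC) and 17.8 (KO TTC), against 20.0 (WT SC) and 21.2 (WT TTC). Mrpl28, Mrpl49 and Mrpl11 were not called in any pair, with the 4 libraries of each within 1.29-fold, 1.17-fold and 1.19-fold.

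At the low end, 39 members had reads in all 4 libraries, 9 were at 0 in 1 library, 3 in 2 libraries, 3 in 3 libraries and 1 in all 4. Members at 0 numbered 7 (KO SC) and 2 (KO TTC), against 9 (WT SC) and 10 (WT TTC). KO TTC, the deepest library, had the fewest and WT TTC, the shallowest, the most. These were 3.64% to 18.2% of the members, and in each library a smaller share than among all transcripts, where 19.1% to 28.4% were at 0. Mrpl3 had 0 reads in every library, which allows up to 3 reads, or 1.12 RPM (KO SC), 0.821 (KO TTC), 1.43 (WT SC) and 2.05 (WT TTC). Mrps27 and Mrps35 each had 1 read, in KO TTC.
Mrpl46, a protein of the central protuberance, had 5 reads in the KO TTC library and 0 in the other 3. Its start lies 42 bases from that of Mrps11 on the opposite strand, across the short sequence printed above. Mrps11 had 14 reads (KO SC) and 15 (KO TTC), against 36 (WT SC) and 10 (WT TTC). Mrps11 thus had more footprints than Mrpl46 in all 4 libraries, although both genes start in the same short region. Mrpl2 had 1 read (KO SC) and 1 (WT SC), and 0 in both TTC libraries. Mrps2 had 6 reads (KO TTC) and 2 (WT TTC), and 0 in both SC libraries. Counts this small do not show a difference between codes at this depth (adjusted p = 0.163 between the KO libraries and 0.442 between the WT libraries for Mrps2, exact binomial test).

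Libraries labelled Ltn1 KO and WT were compared to see whether initiation on these mRNAs differed with the ligase. In the SC pair, Mrpl30 and Mrps9 were higher in KO SC and Mrpl17, Mrpl47, Mrps11 and Mrps7 were lower. In the TTC pair, Mrpl44 and Mrpl15 were higher in KO TTC and Mrps34 was lower. No member was called in both pairs. The share of all transcripts called in both is not given here, so this is not a result about the members. Calls rest on a two-sided exact binomial test on reads given the library totals, with the Benjamini-Hochberg adjustment over all transcripts with reads and a threshold of 0.05, and with 1 library per group they compare libraries and not conditions. In the SC pair 2 of 50 members with reads were higher and 4 lower, where 2.63% of all tested transcripts were higher and 4.74% lower (7.38% in either direction). In the TTC pair 2 of 53 were higher and 1 lower, where 3.14% were higher and 4.41% lower (7.54% in either direction). The members' share in either direction was 12.0% in the SC pair, from 6 genes, and 5.66% in the TTC pair, from 3 genes. It was thus above the share of all transcripts in the SC pair and below it in the TTC pair. Reads spread more between these libraries than counting error gives, since the mean Pearson statistic of members with at least 20 reads, near 1 for counting error alone, was 4.42 in the SC pair and 2.34 for TTC (3.28 and 3.17 over all such transcripts).
Mrpl17, of the rim of the tunnel through which the nascent chain leaves, was the member most clearly lower (GRCm38 chromosome 7, 105803782 to 105811087). It had 20.9 RPM (KO SC) against 53.4 RPM (WT SC), and 48.4 RPM (KO TTC) against 50.0 RPM (WT TTC). KO SC alone was low, and the other 3 libraries lay within 48.4 to 53.4 RPM. The level in KO SC was 0.392-fold that in WT SC (interval 0.279 to 0.545, adjusted p = 8.49e-07, exact binomial test), and in the TTC pair the ratio was 0.969 (0.733 to 1.29, adjusted p = 1.00).
Mrpl47, also at the tunnel exit, had 2.99 RPM (KO SC) against 11.0 RPM (WT SC), and 6.56 RPM (KO TTC) against 6.16 RPM (WT TTC). The SC ratio was 0.273 (0.105 to 0.632, adjusted p = 0.0185, exact binomial test), with WT SC the highest library and KO SC the lowest.

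For the small subunit proteins Mrps11 and Mrps7 the SC difference lay on the side of WT SC. Mrps11, part of the platform, lies on chromosome 7 from 78783131 to 78792988. It had 5.24 RPM (KO SC) against 17.2 RPM (WT SC), and 4.10 RPM (KO TTC) against 6.85 RPM (WT TTC). WT SC stood above the other 3 libraries, and the KO library was the lower of each pair. The ratio was 0.305 in the SC pair (0.152 to 0.579, adjusted p = 0.00306, exact binomial test) and 0.599 in the TTC pair (0.252 to 1.49, adjusted p = 0.642).
Mrps7, of the head, had 5.99 RPM (KO SC) against 14.8 RPM (WT SC), and 6.02 RPM (KO TTC) against 5.48 RPM (WT TTC). Again WT SC was high, and the other 3 libraries lay between 5.48 and 6.02 RPM. The SC ratio was 0.405 (0.207 to 0.763, adjusted p = 0.0445, exact binomial test), a call lost with either other scaling of the libraries (adjusted p = 0.0659 and 0.0897).
Mrps9, likewise of the head (chromosome 1, 42851233 to 42905683), moved the other way. It had 8.60 RPM (KO SC, 23 reads) against 0 (WT SC), and 1.64 RPM (KO TTC, 6 reads) against 4.11 RPM (WT TTC, 6 reads). KO SC was at least 6.01-fold higher than WT SC, taking the floor of 3 reads for WT SC and no error for KO SC, and the lower 95% limit of the ratio, with the error of both, was 4.51 (adjusted p = 1.75e-04, exact binomial test), while the TTC ratio was 0.399 (0.107 to 1.49, adjusted p = 0.407).
Mrpl30 of the large subunit had 26.2 RPM (KO SC) against 13.4 RPM (WT SC), and 15.0 RPM (KO TTC) against 13.0 RPM (WT TTC). KO SC alone was high, with an SC ratio of 1.96 (1.25 to 3.16, adjusted p = 0.0345, exact binomial test).

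In the TTC pair, both members called higher had 0 or 1 read in WT TTC. Mrpl44, a protein with a ribonuclease III fold that lies near the tunnel exit, maps to chromosome 1 from 79776018 to 79781445. It had 7.39 RPM (KO TTC, 27 reads) against 0 (WT TTC), and 13.5 RPM (KO SC, 36 reads) against 12.4 RPM (WT SC, 26 reads). KO TTC was at least 3.60-fold higher than WT TTC, taking the same floor for WT TTC, with a lower 95% limit of the ratio of 2.73 (adjusted p = 0.00526, exact binomial test), and the SC ratio was 1.09 (0.638 to 1.87, adjusted p = 0.999).
Mrpl15, a large subunit protein, had 8.21 RPM (KO TTC, 30 reads) against 0.685 RPM (WT TTC, 1 read), and 11.2 RPM (KO SC) against 8.11 RPM (WT SC). WT TTC alone was low. The TTC ratio was 12.0 with a wide interval of 1.99 to 489 (adjusted p = 0.0130, exact binomial test), and the SC ratio was 1.38 (0.739 to 2.67).
Mrps34, a small subunit protein without a bacterial counterpart (chromosome 17, 24895120 to 24896289), was lower in the KO library of each pair. It had 9.03 RPM (KO TTC) against 19.9 RPM (WT TTC), and 12.0 RPM (KO SC) against 17.7 RPM (WT SC). Both KO libraries lay below both WT libraries. The TTC ratio was 0.455 (0.268 to 0.776, adjusted p = 0.0419, exact binomial test), lost when libraries were rescaled by median-of-ratios factors (adjusted p = 0.0614), and the SC ratio was 0.678 (0.409 to 1.12, adjusted p = 0.412).

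**Figure D2:**
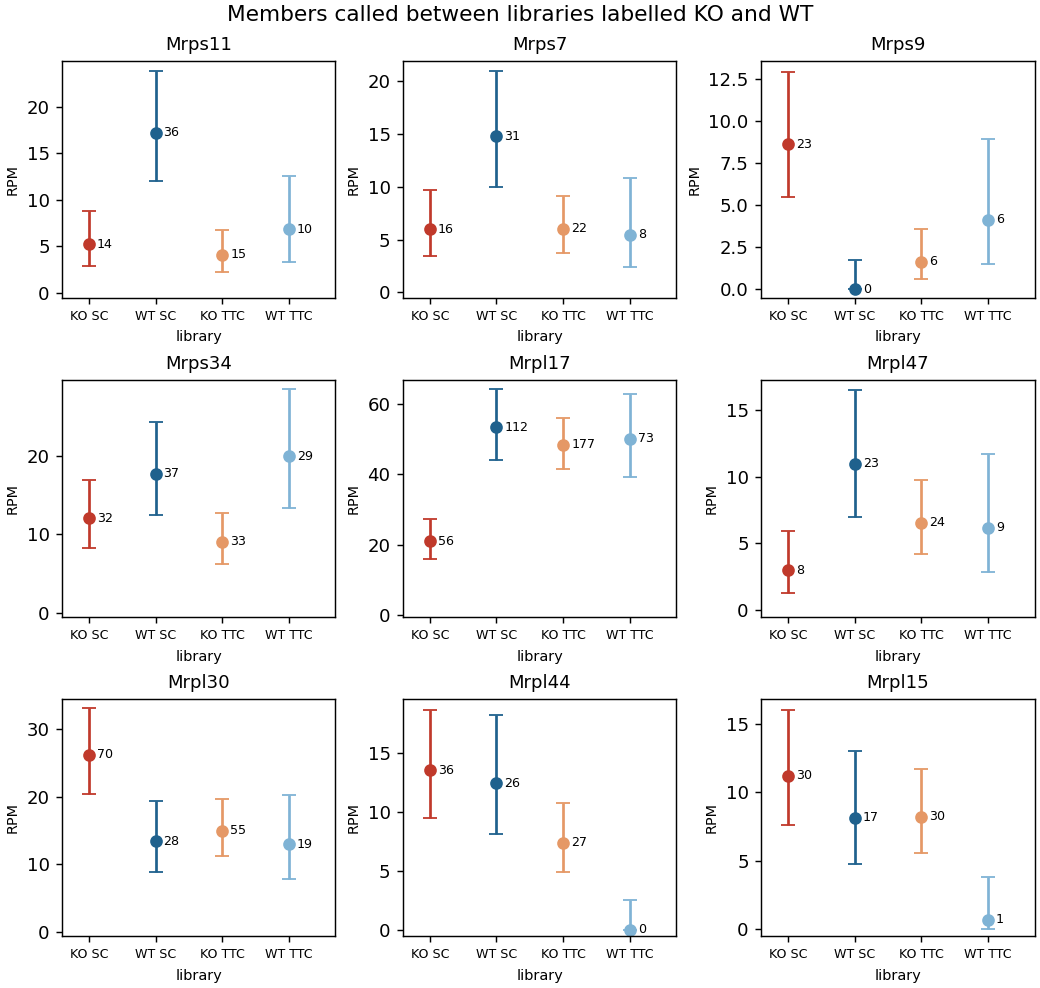
Points give RPM at the initiation site (vertical axes) in each library (horizontal axes) for the 9 members called in a KO over WT pair, with exact Poisson 95% intervals for counting error and the reads beside the points. KO SC is low for Mrpl17 and high for Mrpl30, WT SC is high for Mrps11 and Mrps7, and WT TTC is at 0 or 1 read for Mrpl44 and Mrpl15.

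The small subunit sum was lower in the KO library of each pair, and the large subunit sum was higher in KO TTC and level in KO SC. The 18 small subunit members summed to 80.4 RPM (KO SC, 70.0 to 91.9) against 102 RPM (WT SC, 88.9 to 117), and to 76.9 RPM (KO TTC, 68.1 to 86.4) against 101 RPM (WT TTC, 85.0 to 118). Each KO sum was therefore below its WT sum, at a ratio of 0.788 (0.649 to 0.956) in the SC pair, beside 0.764 (0.623 to 0.939) for TTC. It stayed between 0.778 and 0.868 under the other scalings and with the subunits taken by symbol. The same range held without the called members or the 2 with the most reads. Each of these values lay nearer to 1 than the main ratio of its pair. No interval was computed for them, so whether they exclude 1 was not tested. The 37 large subunit members summed to 315 RPM (KO SC) against 318 RPM (WT SC), a ratio of 0.990 (0.893 to 1.10), and to 360 RPM (KO TTC) against 316 RPM (WT TTC), a ratio of 1.14 (1.02 to 1.27). The SC ratio of the large subunit lay above 1 under either other scaling (1.04 and 1.09). Its TTC ratio was 1.16 and 1.19 under these scalings. Without the called Mrpl15 and Mrpl44, which had 1 and 0 reads in WT TTC, the TTC ratio was 1.09, with no interval computed. Over all transcripts the ratio of sums was 0.950 in the SC pair, beside 0.977 for TTC. The intervals hold counting error only, and the subunits were compared after the calls were known, so no test is given.
By single members the small subunit was less one-sided. In the SC pair 5 of its 18 members were higher in KO SC, 10 lower (6 with median-of-ratios scaling) and 3 equal, with a median difference in log2(RPM + 1) of -0.04, and in the TTC pair 8 were higher and 10 lower, with a median of -0.16. For the large subunit, 20 of 37 were higher and 15 lower in the SC pair (median 0.08), and 23 higher and 12 lower in the TTC pair (median 0.12). Lower in both KO libraries were 6 small subunit members, Mrps11, Mrps15, Mrps22, Mrps23, Mrps31 and Mrps34, and 4 of the large subunit, Mrpl4, Mrpl11, Mrpl17 and Mrps30. Higher in both were 12 large subunit members, among them Mrpl10, Mrpl12, Mrpl28, Mrpl32, Mrpl44 and Mrpl49, and 1 of the small subunit, Mrps24. Of all 55 members, 10 were lower in both (18.2%, against 22.9% of all transcripts) and 13 higher in both (23.6%, against 19.2%). The other members had opposite signs in 14 and 12 cases or no difference in a pair in 6.
Among the members of at least 10 RPM with the largest differences, Mrpl32 and Mrps23 went the same way in both pairs without being called. Mrpl32, whose maturation by a mitochondrial protease precedes ribosome assembly, had 20.2 RPM (KO SC) against 13.4 (WT SC) and 15.6 RPM (KO TTC) against 10.3 (WT TTC), ratios of 1.51 (0.941 to 2.48) and 1.52 (0.848 to 2.89). Mrps23 had 9.35 RPM (KO SC) against 14.8 (WT SC) and 10.7 RPM (KO TTC) against 13.0 (WT TTC), ratios of 0.632 (0.358 to 1.11) and 0.820 (0.463 to 1.50).

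**Figure D3:**
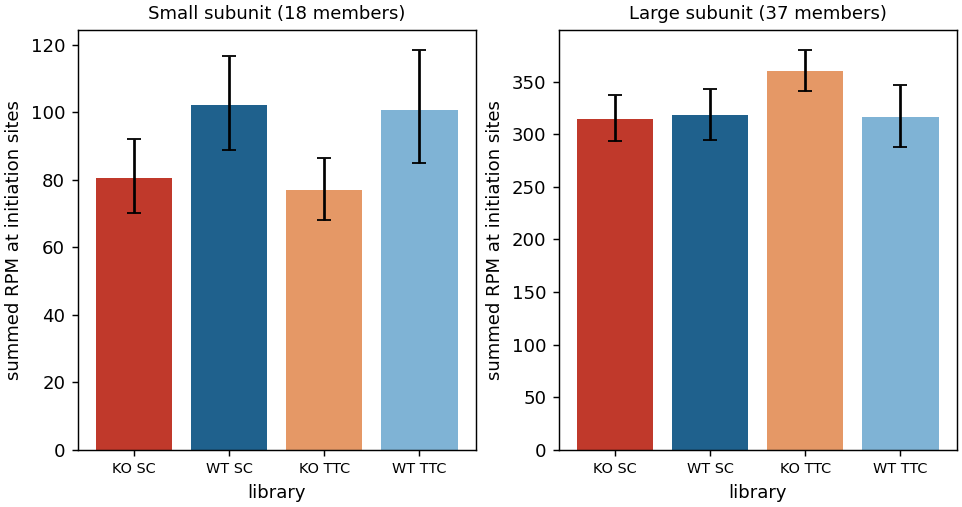
Bars give the summed RPM at initiation sites (vertical axes) of the 18 small subunit members (left) and the 37 large subunit members (right) in each library (horizontal axes), with exact Poisson 95% intervals for counting error. The small subunit sums are 80.4 RPM (KO SC) and 76.9 RPM (KO TTC), below 102 RPM (WT SC) and 101 RPM (WT TTC), and the large subunit is highest in KO TTC at 360 RPM.

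By place in the ribosome, the 7 members at the tunnel exit had a summed SC ratio of 0.638 (0.515 to 0.789), which rests on Mrpl17 and Mrpl47, since 4 of the 7 were higher in KO SC and 3 lower, with a median difference in log2(RPM + 1) of 0.11. Their summed TTC ratio was 1.13 (0.901 to 1.41). For the 6 members of the central protuberance, the part that contacts the small subunit and holds a structural RNA, the ratios were 0.951 (0.635 to 1.43) and 1.18 (0.799 to 1.77). For the 3 members of the stalk, Mrpl10, Mrpl11 and Mrpl12, they were 1.03 (0.754 to 1.43) and 1.13 (0.805 to 1.61). The 32 members with a bacterial counterpart had ratios of 0.917 (0.822 to 1.02) and 1.07 (0.953 to 1.20), and the 23 without had 0.996 (0.846 to 1.17) and 1.00 (0.850 to 1.19).

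When genotype was fitted over the 4 libraries with code as a second term, limma called 0 of the 40 members whose mean reached 2 RPM, and 0 of 3674 transcripts in all. At an unadjusted p under 0.05, Mrpl15 was higher and Mrps11 and Mrps34 lower, while 8.41% of all transcripts reached that level. Mrps34 differed by -0.79 (SE 0.30) in log2(RPM + 1) and Mrps11 by -1.08 (SE 0.40), both with an adjusted p of 0.585 in limma. Neither edgeR (0% of all transcripts called) nor DESeq2 (0.0272% called, all lower) called a member, nor did limma with no filter on low values (0.437% higher and 0.638% lower). The fits have 1 residual degree of freedom. The KO over WT ratio itself differed between codes for 3 of 48 members tested, where 3.97% of all transcripts did so (exact conditional test on reads). These were Mrpl17 (adjusted p = 0.00220), Mrps9 (adjusted p = 0.00285) and Mrpl44 (adjusted p = 0.0445), each with 1 library apart from the other 3, or in Mrps9 with KO SC and WT SC at the extremes.

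**Figure D4:**
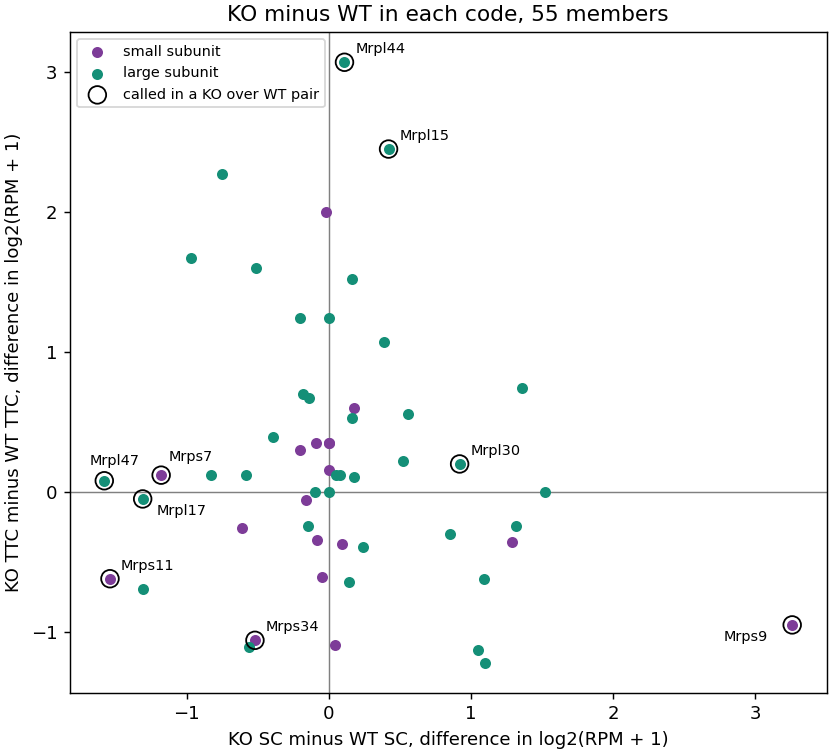
Points are the 55 members, with KO SC minus WT SC on the horizontal axis and KO TTC minus WT TTC on the vertical axis, both as differences in log2(RPM + 1). Black circles mark the members called in a pair. Mrpl17 and Mrpl30 lie far from 0 along the SC axis and near 0 along the TTC axis, Mrpl44 the reverse, and Mrps34 and Mrps11 are below 0 on both axes.

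The SC libraries, titled Ttc3 RNAi, were set against the TTC libraries, titled scrambled RNAi, within each genotype. Since the reads of Ttc3 go against these titles, a direction here is that of the codes and not of the RNAi. These comparisons share libraries with those above. Within KO, 2 of 54 members were higher in KO SC (Mrpl30 and Mrps9) and 5 lower (Mrpl13, Mrpl16, Mrpl17, Mrpl37 and Mrpl40), where 5.71% of all transcripts were higher and 10.9% lower. Within WT, 2 of 51 were higher in WT SC (Mrpl15 and Mrpl44) and 3 lower (Mrpl35, Mrpl43 and Mrps9), where 3.82% were higher and 7.02% lower. Of these, Mrps9 was called in both, in opposite directions. How many of all transcripts were called in both is not given here. In either direction, 13.0% of the members with reads were called within KO and 9.80% within WT, against 16.6% and 10.8% of all transcripts. The sum of the members was 0.905-fold in KO SC relative to KO TTC (0.837 to 0.979), beside 0.904 for all transcripts, and 1.01-fold in WT SC relative to WT TTC (0.908 to 1.12), beside 0.931.
Mrpl13, a large subunit protein, had 14.2 RPM (KO SC) against 25.2 RPM (KO TTC), and 16.2 RPM (WT SC) against 15.1 RPM (WT TTC). KO TTC was the high library (KO ratio 0.565, 0.377 to 0.833, adjusted p = 0.0203, exact binomial test).
Mrpl16 had 10.8 RPM (KO SC) against 20.2 RPM (KO TTC), and 16.7 RPM (WT SC) against 18.5 RPM (WT TTC), with KO SC the low one (KO ratio 0.536, 0.336 to 0.834, adjusted p = 0.0280, exact binomial test).
Mrpl40, of the central protuberance, had 4.12 RPM (KO SC) against 11.2 RPM (KO TTC), and 8.11 RPM (WT SC) against 10.3 RPM (WT TTC). Here too KO SC was the lowest (KO ratio 0.367, 0.170 to 0.727, adjusted p = 0.0166, exact binomial test). Mrpl37, without a bacterial counterpart, had 15 reads in KO TTC and 1 or 2 in the others, at 0.374 RPM (KO SC) against 4.10 RPM (KO TTC), a ratio of 0.0912 with an interval of 0.00217 to 0.593 (adjusted p = 0.0279, exact binomial test).
In WT, Mrpl35 had 2.39 RPM (WT SC) against 9.59 RPM (WT TTC), and 5.99 RPM (KO SC) against 3.83 RPM (KO TTC). Mrpl43 had 1.91 RPM (WT SC) against 9.59 RPM (WT TTC), and 5.24 RPM (KO SC) against 3.56 RPM (KO TTC). For both genes WT SC was lowest and WT TTC highest, with WT ratios of 0.249 (0.0701 to 0.731, adjusted p = 0.0455, exact binomial test) for Mrpl35 and 0.199 (0.0477 to 0.634, adjusted p = 0.0300) for Mrpl43. Of the calls between codes, those of Mrpl13, Mrpl16, Mrpl35 and, in WT, Mrps9 were lost under either other scaling and that of Mrpl37 with median-of-ratios factors (adjusted p between 0.0540 and 0.101). With code fitted over the 4 libraries, 0 of 40 members passed in limma, and Mrpl15 and Mrpl44 were higher in the SC libraries at an unadjusted p under 0.05, a level that 16.1% of all transcripts reached. Without the filter limma called Mrpl44 higher, with 1.75% of all transcripts higher and 3.06% lower, and DESeq2 called 1.45% higher and 0.931% lower of the 967 transcripts to which it gave an adjusted p. These hold 9 of the 40 members, of which 0 were called, and Mrpl44 (unadjusted p = 0.0119 in DESeq2) is not among them. Under the exchange of the RNAi labels every sign in these SC over TTC comparisons turns round, and the KO over WT pairs keep theirs.

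The remaining 19 members lay between 0.477 and 12.9 RPM and were not called in any pair. Among further members at 0 in a library, Mrpl1 had 5 reads (KO SC) and 14 (KO TTC), against 8 (WT SC) and 0 (WT TTC), and Mrps28 had 10 and 11 in the KO libraries, against 8 (WT SC) and 0 (WT TTC). Mrpl18 had 8 reads (KO TTC) and 0 (KO SC), against 0 (WT TTC) and 2 (WT SC). Of the libraries, WT SC alone lacked reads on Mrpl21 and Mrpl45, which had 4 and 5 reads in KO SC, and WT TTC alone lacked reads on Mrpl48, which had 5 in KO TTC. None of these differences passed the adjusted test. Mrpl9 and Mrps30 had at most 3 and 6 reads in any library. Mrpl50 had 9.73 RPM (KO SC) against 8.59 RPM (WT SC), and 15.3 RPM (KO TTC) against 10.3 RPM (WT TTC). Mrpl58, which frees stalled chains from mitochondrial ribosomes, had 12.0 RPM (KO SC) against 6.20 RPM (WT SC), and 9.85 RPM (KO TTC) against 12.3 RPM (WT TTC). Neither was called in a pair.

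Other genes of mitochondrial translation were taken as fixed lists. The 4 measured mitoribosome subunits with other names had summed ratios of KO over WT of 0.972 (0.703 to 1.35) in the SC pair, beside 1.20 (0.839 to 1.74) for TTC, with 0 called. The 9 translation factors had 0.882 (0.621 to 1.26) and 0.754 (0.549 to 1.04), with 0 called in the SC pair, beside 1 higher and 2 lower for TTC. The 11 assembly factors summed to 37.0 RPM (KO SC) against 38.6 RPM (WT SC) and to 42.7 RPM (KO TTC) against 21.9 RPM (WT TTC). Their ratio was 0.958 (0.707 to 1.30) in the SC pair with 1 called lower, and 1.95 (1.32 to 2.95) in the TTC pair, where 7 of 11 were higher and 1 was called higher. In WT TTC, the shallowest library, only 4 of the 11 had reads, 32 in all, against 8 with 156 reads in KO TTC. The 35 nuclear subunits of the respiratory chain had 0.972 (2 called higher, 4 lower) and 1.08 (4 higher, 2 lower). The 42 cytosolic ribosomal proteins had 1.17 (1.11 to 1.24) and 1.11 (1.05 to 1.18), with 7 called higher and 0 lower in the SC pair, beside 5 higher and 1 lower for TTC. Beside these counts, 2.63% of all tested transcripts were called higher and 4.74% lower in the SC pair. For TTC the shares were 3.14% higher and 4.41% lower. The small mitochondrial subunit thus had a summed ratio below 1 in both pairs, where the cytosolic list had ratios above 1, and the difference was not tested. Ratios below 1 in both pairs were not particular to it. The translation factors had them too, though with intervals that include 1 in both pairs. All transcripts together also had ratios below 1 (0.950 in the SC pair and 0.977 for TTC). The 10 mRNAs that mitochondrial DNA encodes summed to 2.24 RPM (KO SC) and 3.83 (KO TTC), against 3.34 (WT SC) and 4.79 (WT TTC), or 6 to 14 reads a library. They are translated on mitochondrial ribosomes, whose response to harringtonine was not measured here. Their reads are therefore not taken as a measure of initiation.

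The libraries also differed in glial footprints. Neuron markers, all 11 with reads, summed to 2379 RPM (KO SC) and 2222 (KO TTC), against 2107 (WT SC) and 2008 (WT TTC). The 6 astrocyte markers listed summed to 112 RPM (KO SC) and 171 (KO TTC), against 192 (WT SC) and 227 (WT TTC), with Aqp4 at 0 in both SC libraries. The 6 oligodendrocyte lineage markers used summed to 12.0 RPM (KO SC) and 30.6 (KO TTC), against 31.0 (WT SC) and 38.3 (WT TTC). Mbp had 0 reads in KO SC against 20 in WT SC, and Cspg4 had at most 2 reads in any library. Some glial markers were level or went the opposite way to the sums. In the SC pair Olig2 had 7.48 RPM (KO SC) and 7.63 (WT SC), Pdgfra 1.12 and 0.954, and Slc1a3 6.36 and 5.72. In the TTC pair Olig1 had 6.02 RPM (KO TTC) and 3.42 (WT TTC), and Cnp 3.83 and 2.05. No microglia marker of the list was in the table. The glial sums were lower in the KO library of each pair, as the small subunit sums were. The astrocyte ratio of KO over WT was 0.583 in the SC pair and 0.753 for TTC, with intervals below 1. Aldoc held most of these reads, 201 of 299 in KO SC and 380 of 626 in KO TTC. The oligodendrocyte ratios were 0.386 (0.245 to 0.598) and 0.799 (0.575 to 1.12), so the TTC interval includes 1. In the SC pair 4 of 6 astrocyte and 5 of 6 oligodendrocyte lineage markers were lower, and for TTC 5 and 4. The part of glia in the members' levels was not tested.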

How the data were processed

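The deposited table gives RPM at initiation sites, made by the authors by scaling to all reads of a library. The submitters' processing notes name Bowtie, SAMtools, bedtools and GRCm38 (mm10), and the window counted, annotation and versions are not given in the sources used here. All values were whole reads after division by the worth of a single read (tolerance 1e-06), and these reads were used. Symbols came from the study's list of transcripts, with 38 broken identifiers mended (1 member, Mrpl24), for 6349 of 6352 transcripts. Pairs of libraries were compared with a two-sided exact binomial test on reads, with Benjamini-Hochberg adjustment over all transcripts with reads, and the difference between pairs with an exact conditional test at 10 or more reads in all. Limma 3.58.1 was fitted on log2(RPM + 1) at a mean of at least 2 RPM, with edgeR 4.0.16 and DESeq2 1.42.0 on recovered reads as alternatives (R 4.3.3). Exact tests ran in scipy 1.17.1 (Python 3.11.15, numpy 2.4.6, pandas 2.3.3), and all tests were tried on simulated data. The simulated reads had counting error only, so the trial does not show how the tests behave at the wider spread of these libraries. Members, lists and tests were chosen with earlier results of these data known. Named with their values were members called in a pair, at 0 in a library, among the 5 highest means, or among the 3 lowest or 3 highest KO over WT differences at a mean of at least 10 RPM. One marker of the oligodendrocyte list is not reported here. Subunits and sites were assigned from the known mammalian structure. Alternatives were other scalings, filters, pseudocounts and thresholds, and sums without single members, the last chosen after seeing the data.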

Additional observations from a re-analysis of the deposited data

Results flagged for a closer look

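For 3 members the ratio of KO over WT differed between the codes by an exact conditional test on reads, adjusted over 4585 transcripts, of which 3.97% passed. Mrpl17 (adjusted p = 0.00220) had 56 reads in KO SC against 112 in WT SC and 177 in KO TTC against 73 in WT TTC, ratios of 0.392 and 0.969 after scaling. Mrps9 (adjusted p = 0.00285) had 23 reads in KO SC against 0 in WT SC and 6 in KO TTC against 6 in WT TTC. Mrpl44 (adjusted p = 0.0445) had 36 reads in KO SC against 26 in WT SC and 27 in KO TTC against 0 in WT TTC. Each library was sequenced from 1 sample, so the test compares libraries, and the cause was not tested.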

How the results depend on the processing

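Of 159 values recomputed under an alternative, 134 were counted as unchanged. For calls this meant the same side of the threshold, and for counts a value within 1.5 times. Medians and summed ratios could count as unchanged inside the interval of the main value with their direction turned. The member median of KO SC over KO TTC went from -0.16 to 0.10 at a mean of at least 5 RPM. The ratio of summed members of KO SC over WT SC went from 0.941 to 1.01 without Mrpl17 and Mrpl28. The large subunit ratio of that pair went from 0.990 to 1.04 and 1.09 under the other scalings. Rescaling the libraries to the same sum over listed sites or by median-of-ratios factors shifted log2 differences by 0.03 to 0.17. The ratio of summed members moved to 1.04 for KO SC over WT SC with median-of-ratios factors, and for KO SC over KO TTC to 1.00 with the same sum and 1.02 with median-of-ratios factors. With those factors the small subunit members with a lower level in KO SC numbered 6. Without Mrpl17 and Mrpl28 the large subunit ratio of KO SC over WT SC was 1.11, and without the called Mrpl17, Mrpl30 and Mrpl47 it was 1.10. At an unadjusted p of 0.05, 10 of 53 members were called for KO TTC over WT TTC (18.8% of all transcripts), 15 of 51 for WT SC over WT TTC (21.8%) and 9 of 48 for the difference between codes (15.2%). In limma over the 4 libraries, 3 of 40 were called for genotype (8.41%) and 2 for code (16.1%). Limma without a filter called 1 member for code. The exchange of labels turned the median difference of KO SC over KO TTC to 0.16. The 24 calls of single members were recomputed as well, wherever the filter kept the member. The call was lost 12 times, each time by rescaling. Calls of members removed by a filter were not counted. At a mean of at least 5 RPM these were Mrps9 and Mrpl37 (means of 3.59 and 1.53 RPM). At a total of at least 40 reads, the difference between codes of Mrps9 dropped out too. With 1 library per group no replicate could be left out, and no fit with a replicate block was possible because the labels carry no replicate numbers. The fit of genotype with code as a second term estimates a common KO over WT difference for both codes. A difference between the codes goes into its residual. Most members had under 20 reads in a library, which limits what could be detected, and the window of counting was unknown.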
